A study of Mus musculus with 4 samples.

Results

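The 10 genes described here are those of the tumour suppressor p53 and 3 genes tied to it (Trp53, Mdm2, Cdkn1a, Ccng1), the D-type cyclins (Ccnd1, Ccnd2, Ccnd3) and the Gadd45 family (Gadd45a, Gadd45b, Gadd45g). They were chosen by gene name from a table of 48432 gene rows, and each name had 1 row. The cells are cardiomyocytes, the contractile muscle cells of the heart, which were taken from perfused mouse hearts with the Langendorff method. Of the 4 libraries, 2 carry the label MHC and serve as the control, and 2 come from mice that overexpress the RNA-binding splicing regulator Rbfox2 (Rbfox2 OE). All mice were of the strain C57BL x FVB and ate doxycycline food for 3 days, the control included. The labels do not spell out the MHC allele, the promoter that drives Rbfox2, or the age and number of animals behind a library.

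For every gene the authors deposited 1 FPKM value per group (fragments counted per kilobase and corrected for library size, a level per length that can be set side by side between genes), a pair of bounds, and a status. The values of the 10 genes lie within their bounds, while 7 of the 11695 genes compared below have a value outside its own, 2 of them with bounds that do not overlap between the groups. The control is called MHC cells below and the other group OE cells, and a pair of values in parentheses after a level gives its bounds in FPKM. The 2 libraries of a group are pooled in that value. No spread between libraries can be seen and no test between the groups was possible, so every difference below is a difference between pooled values, read against the authors' bounds, whose level is not stated. Read depth is unknown. Rbfox2 itself stood at 14.7 FPKM in MHC cells and 293 FPKM in OE cells, in the direction of the labels.

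The protein p53, made from Trp53, is a transcription factor that is held at a low level by the ubiquitin ligase Mdm2 and is stabilised when DNA is damaged or cells are stressed, mostly without a change in its messenger RNA. It binds a defined DNA element and switches on genes such as Cdkn1a, Ccng1 and Mdm2, the last of these closing a feedback loop. Cdkn1a encodes p21, which blocks the cyclin-dependent kinases that D-type cyclins activate to carry a cell from G1 into S phase. The Gadd45 proteins are small stress sensors that bind the kinase Map3k4, PCNA and Cdk1. Adult cardiomyocytes have largely left the cell cycle.

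The DNA just upstream of these genes is shown first for Cdkn1a and Ccng1, because these 2 genes share a feature and differed in opposite directions. In RefSeq's promoter table (build GRCm38.p6), 8 of the 10 genes were matched, all but Ccnd1 and Ccnd2. The 250 bases before each start site were searched for the consensus p53 element, a pair of 10-base half-sites with no spacer, which reads the same on both strands. The Cdkn1a stretch lies at chr17:29090729-29090975 on the plus strand, before the more upstream of 2 RefSeq start sites, and the Ccng1 stretch lies at chr11:40755312-40755536 on the minus strand. Each is printed 5′ to 3′ up to the first annotated exon base, and capitals mark the 20 bases that match the element best.
Cdkn1a: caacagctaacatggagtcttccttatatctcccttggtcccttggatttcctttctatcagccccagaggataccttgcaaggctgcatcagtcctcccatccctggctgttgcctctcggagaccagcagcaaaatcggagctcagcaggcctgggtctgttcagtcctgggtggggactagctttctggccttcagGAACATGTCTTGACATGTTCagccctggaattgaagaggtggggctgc
Ccng1: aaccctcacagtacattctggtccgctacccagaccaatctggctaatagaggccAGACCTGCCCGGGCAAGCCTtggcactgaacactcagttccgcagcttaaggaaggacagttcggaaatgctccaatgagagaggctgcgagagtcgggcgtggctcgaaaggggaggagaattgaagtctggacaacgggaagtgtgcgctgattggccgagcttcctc

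Both stretches matched the p53 element at 19 of 20 positions. Of 32851 promoter entries searched the same way, 25 (0.0761%) matched as well or better. The Cdkn1a match ends 32 bases before its start site and the Ccng1 match 176 bases before its own. In the lines below, capitals mark positions that match the consensus and lower case marks those that do not, for the 2 genes above and for the next best of the 10 genes, Trp53 and Gadd45a.
Cdkn1a: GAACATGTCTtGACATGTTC
Ccng1: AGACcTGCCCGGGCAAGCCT
Trp53: GGACTTGCCCttACTTGTTa
Gadd45a: AAACTAcCTaGAGCTgGCTC
Trp53 and Gadd45a each matched at 17 positions, which 5.32% of promoter entries reached. The best matches of Gadd45g and Ccnd3 had 16 positions, that of Mdm2 had 15 and that of Gadd45b had 14, levels that 26.1%, 71.1% and 97.4% of entries reached. Cdkn1a and Ccnd3 each have another start site, before which the best match had only 15 and 14 positions. A match describes these letters and does not show that p53 binds there. Windows of this length leave out elements farther away or inside a gene.

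Across the 10 genes the groups differed in both directions. With a pseudocount of 1 FPKM added to each value, Cdkn1a and Gadd45a were at least 2-fold higher in OE cells and Ccng1 was at least 2-fold lower. The bounds of the groups did not overlap for those 3 genes and for Gadd45b, which was lower. The other 6 genes had overlapping bounds. All 10 genes passed the filter of a mean of at least 1 FPKM, which 11695 genes passed in all.

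These counts stand beside a background in which many genes differed. Of all genes compared, 6.95% were at least 2-fold higher in OE cells and 10.02% were at least 2-fold lower. Bounds were separate and higher for 6.66% and separate and lower for 9.33%. Among the 10 genes 2 were higher and 1 was lower at 2-fold, and 2 were higher and 2 lower by separate bounds. The median log2 ratio of Rbfox2 OE over control was 0.10 for the 10 genes and -0.06 for all genes compared, and the median size of the log2 ratio without its sign was 0.72 and 0.45. As deposited, 813 genes were 2-fold higher and 1172 lower. Once both groups were brought to the same total FPKM, which raises Rbfox2 OE by 0.20 on the log2 scale, 1165 were higher and 853 lower.

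**Figure D1:**
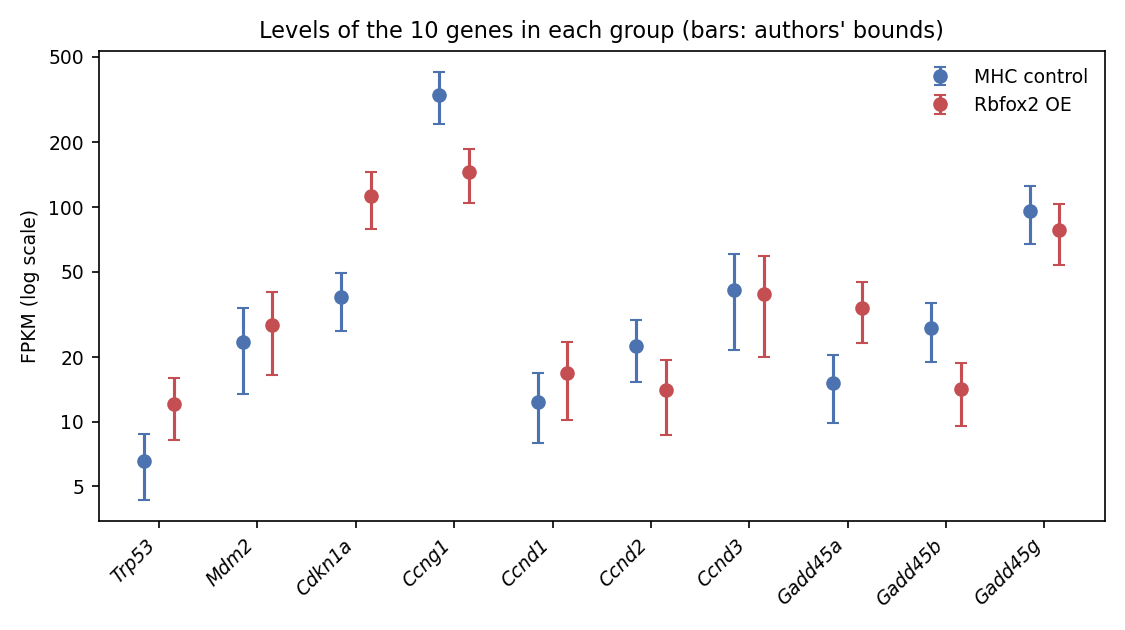
Levels of the 10 genes in FPKM on a log axis, with 1 pooled value per group (blue, MHC control; red, Rbfox2 OE) and bars for the authors' lower and upper bounds. The bars of the groups are apart for Cdkn1a, Ccng1 and Gadd45a and nearly touch for Gadd45b, with Ccng1 at 334 FPKM in MHC cells the highest point.

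Marker transcripts of other cells also stood at different levels in the groups. The summed FPKM of 10 macrophage and leukocyte markers was 124 in MHC cells and 459 in OE cells, and that of 10 fibroblast markers was 485 and 961. Endothelial markers summed to 551 and 848 FPKM, smooth muscle and pericyte markers to 208 and 349, and 5 red blood cell markers to 56.6 and 295. None of these marker genes was at 0 in either group. Higher values in OE cells were seen for all 10 macrophage and leukocyte, all 10 fibroblast, all 10 endothelial and all 5 red blood cell markers and for 9 of 10 smooth muscle and pericyte markers. Of 10 cardiomyocyte markers, 8 had an estimate in both groups, and these summed to 59678 FPKM in MHC cells and 37735 FPKM in OE cells. Of these 8, 7 were lower in OE cells, 3 of them at least 2-fold with separate bounds. Ttn was higher, at 166 FPKM in MHC cells and 252 FPKM in OE cells with overlapping bounds. Myh6 and Mb are listed at 0 with the status HIDATA, given to loci with too many fragments to estimate. In such bulk RNA, fewer cells of a type and less RNA per cell cannot be told apart, and the part of these markers in the differences of the 10 genes was not tested.

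Trp53, the gene of p53 itself, was the lowest of the 10 in both groups. It measured 6.56 FPKM (4.33 to 8.79) in MHC cells and 12.05 FPKM (8.18 to 15.9) in OE cells. The Rbfox2 OE value was 1.84 times the control value, but the bounds overlapped, and the log2 ratio of 0.79 lay short of 2-fold. A log2 ratio below that of Trp53 was found for 89.2% of all genes compared. Its bounds became separate when the groups were scaled to the same total, where the log2 ratio was 0.97. Trp53 (chromosome 11, 69580359 to 69591873, plus strand, protein-coding in GENCODE on GRCm38) overlaps no other annotated gene.

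Mdm2, which marks p53 for degradation and is itself a p53 target, had overlapping bounds. It measured 23.6 FPKM (13.5 to 33.7) in MHC cells and 28.2 FPKM (16.5 to 40.0) in OE cells. The log2 ratio was 0.25, with a range from -0.99 to 1.502 when the most and least favourable bounds were paired. Set against Trp53, the Mdm2 level was 3.60 times as high in MHC cells and 2.34 times as high in OE cells. The bounds allow 1.53 to 7.78 for the first ratio and 1.03 to 4.89 for the second, so these overlap. Mdm2 (chromosome 10, 117688875 to 117710758, minus strand) overlaps no annotated gene.

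Cdkn1a, which encodes the kinase inhibitor p21, had the highest ratio of the 10 genes. It measured 38.0 FPKM (26.5 to 49.5) in MHC cells and 112 FPKM (79.3 to 146) in OE cells, a ratio of 2.96. The bounds were well apart. The log2 ratio was 1.54, and the nearest bounds still gave 0.67 and the farthest 2.41. Its ratio exceeded that of 97.3% of all genes compared, and its rank by level moved from 1873 to 594 among 11695 genes. Cdkn1a lies on chromosome 17, 29090976 to 29100727, plus strand, and shares bases with AC167363.2, an unverified annotated transcript on the opposite strand, whose level was not analysed here.

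Ccng1, the gene of cyclin G1, a p53 target that recruits a phosphatase to Mdm2, had the lowest ratio. It measured 334 FPKM (243 to 425) in MHC cells and 145 FPKM (104 to 186) in OE cells. The control value was 2.30 times the Rbfox2 OE value and the bounds did not overlap. The log2 ratio was -1.20, from -2.01 to -0.39 by the pairs of bounds, and 6.82% of all genes compared had a lower one. It was the most abundant of the 10 in both groups, ranking 211 of 11695 genes in MHC cells and 477 in OE cells. Ccng1 lies on chromosome 11, 40748552 to 40755311, minus strand, and overlaps no annotated gene.

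Of the 10 genes, the 2 with the closest p53 element thus stood on opposite sides. Of all genes with a match as good or better, 5 were compared, these 2 among them. The others, Mthfd1 (log2 ratio -0.69), Rps27l (0.45) and Calhm2 (0.55), had overlapping bounds. With at most 2 mismatches, 62 genes were compared. Of these, 11.3% were at least 2-fold higher and 9.68% lower, beside 6.95% and 10.02% of all genes compared. By separate bounds 9 of the 62 were higher and 6 lower, beside 6.66% and 9.33%. Cdkn1a and Ccng1 are among the 62, and 151 other genes with such a match were not compared. In the control there were 8.79 FPKM of Ccng1 for each FPKM of Cdkn1a, and in OE cells there were 1.29. The bounds allow 4.91 to 16.03 in MHC cells and 0.717 to 2.34 in OE cells, and these ranges do not overlap. That follows from the separate bounds of Ccng1 and Cdkn1a in opposite directions and adds no further evidence. The pair was chosen partly for those directions. The ratio of Ccng1 to Cdkn1a within a group does not depend on how the groups were scaled.

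**Figure D2:**
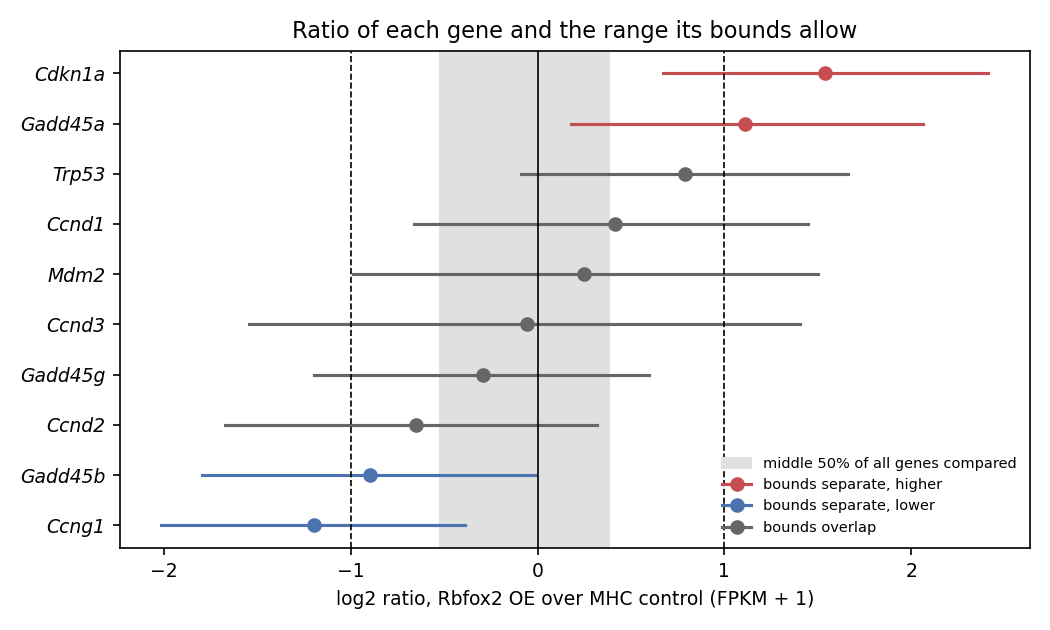
Log2 of the Rbfox2 OE level divided by the MHC level (1 FPKM added to each value) for the 10 genes, ordered by ratio, where lines run between the ratios of the nearest and the farthest bounds, dashed lines mark 2-fold and the grey band holds the middle range, from the lower to the upper quartile, of all genes compared. Cdkn1a at 1.54 and Gadd45a at 1.11 lie to the right with separate bounds, Gadd45b at -0.90 and Ccng1 at -1.20 to the left.

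Among the D-type cyclins, which partner Cdk4 and Cdk6, no gene had separate bounds. Ccnd1 measured 12.4 FPKM (7.93 to 16.8) in MHC cells and 16.8 FPKM (10.2 to 23.4) in OE cells, a log2 ratio of 0.42. Ccnd2 measured 22.6 FPKM (15.3 to 29.9) in MHC cells and 14.04 FPKM (8.71 to 19.4) in OE cells, a log2 ratio of -0.65. Ccnd3 measured 41.1 FPKM (21.6 to 60.5) in MHC cells and 39.5 FPKM (20.1 to 58.9) in OE cells, a log2 ratio of -0.06. The Ccnd1 value was thus the higher one in OE cells and the Ccnd2 value the lower one, with bounds that overlapped between the groups. The sign for Ccnd3 depended on the scaling, from -0.06 as deposited to 0.14 with equal totals.

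Summed over the 3 cyclins the level was 76.1 FPKM in MHC cells and 70.4 FPKM in OE cells. Ccnd3 held the most of it in both, at 54.0% and 56.1%. Ccnd2 made up 29.7% in MHC cells and 19.9% in OE cells, while Ccnd1 made up 16.2% and 23.9%. Ccnd2 was the more abundant of those 2 in MHC cells and the less abundant in OE cells, but the ratio of Ccnd2 to Ccnd1 was 1.83 (0.914 to 3.77 by the bounds) and 0.835 (0.372 to 1.89), ranges that overlap.

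All 3 cyclin genes overlap a gene on the opposite strand, and whether strand was used in counting is not given in the sources used here. Ccnd1 (chromosome 7, 144929931 to 144939925, minus strand) shares bases with Oraov1, at 19.2 FPKM in MHC cells and 9.24 in OE cells. Ccnd3 (chromosome 17, 47505051 to 47599691, plus strand) shares bases with Bysl, at 9.19 and 10.3 FPKM. The antisense partners of Ccnd2 (chromosome 6, 127125162 to 127152193, minus strand) were under 1 FPKM in both groups.

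**Figure D3:**
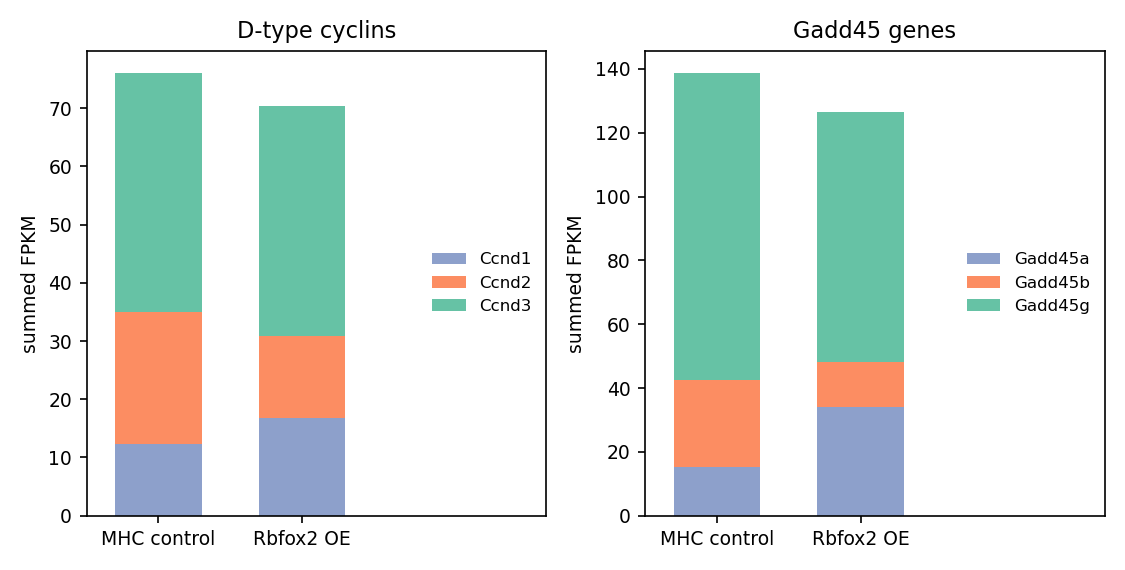
Summed FPKM of the D-type cyclins (left) and of the Gadd45 genes (right) in MHC control and Rbfox2 OE, stacked by gene without error bars, since each is 1 pooled value. The totals are close (76.1 and 70.4 FPKM; 139 and 126 FPKM), while the Gadd45a band widens from 15.2 to 33.9 FPKM and the Gadd45b band narrows from 27.3 to 14.2 FPKM.

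The 3 Gadd45 genes, whose proteins resemble each other and activate the p38 and JNK kinases through Map3k4, did not share a direction. Gadd45a, the member known as a p53 target, measured 15.2 FPKM (9.88 to 20.4) in MHC cells and 33.9 FPKM (23.3 to 44.5) in OE cells. The Rbfox2 OE value was 2.24 times the control value, the bounds were separate, and the log2 ratio was 1.11 (0.18 to 2.06 by the pairs of bounds). The ratio exceeded that of 94.5% of all genes compared. Adding 5 FPKM in place of 1 gave 0.95, short of 2-fold. Gadd45a (chromosome 6, 67035096 to 67037457, minus strand) overlaps E230016M11Rik on the opposite strand, which was at 0.402 FPKM in MHC cells and 0.300 FPKM in OE cells.

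Gadd45b, an early response gene to growth and inflammatory signals, was lower in OE cells, short of 2-fold. It measured 27.3 FPKM (18.9 to 35.7) in MHC cells and 14.2 FPKM (9.56 to 18.8) in OE cells, a log2 ratio of -0.90. The control value was 1.93 times the other, and 12.3% of all genes compared had a lower ratio. The bounds were separate by a small margin, 18.88 against 18.76 FPKM, and overlapped under each of the 3 other scalings, where the log2 ratio lay between -0.84 and -0.71. Gadd45b (chromosome 10, 80930073 to 80932204, plus strand) overlaps no annotated gene.

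Gadd45g was the most abundant of the family in both groups. It measured 96.3 FPKM (67.6 to 125) in MHC cells and 78.4 FPKM (53.9 to 103) in OE cells. The bounds overlapped, with a log2 ratio of -0.29. Gadd45g (chromosome 13, 51846678 to 51848468, plus strand) overlaps no annotated gene.

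The family total was 139 FPKM in MHC cells and 126 FPKM in OE cells. Gadd45a made up 10.9% of it in MHC cells and 26.8% in OE cells, Gadd45b 19.7% and 11.2%, and Gadd45g 69.4% and 62.0%. The bounds allow shares that overlap between the groups for each of the 3 genes, 5.79% to 19.1% and 16.1% to 41.2% for Gadd45a. For each FPKM of Gadd45a there were 1.80 FPKM of Gadd45b in MHC cells and 0.418 in OE cells. The bounds allow 0.924 to 3.61 and 0.215 to 0.806, which do not overlap. That follows from the separate bounds of both genes as deposited and adds no further evidence. The ratio of Gadd45g to Gadd45a was 6.36 (3.31 to 12.6) and 2.31 (1.21 to 4.42), ranges that overlap. Genes of the early response, a list that holds stress genes induced alongside Gadd45b, were mixed. Of 10 such genes, Myc was higher and Atf3 and Jun were lower with separate bounds, beside 6.66% and 9.33% of all genes compared. The median log2 ratio of the 10 was -0.21. That median includes Junb, at 192 and 225 FPKM, whose values lie outside their own bounds, so its bounds cannot be compared. Atf3 measured 89.9 FPKM in MHC cells and 37.4 in OE cells.

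The order of levels differed between the groups. In the control Ccng1 came first, then Gadd45g, and the bounds of each were clear of the next gene. Behind them Ccnd3 (41.1 FPKM), Cdkn1a, Gadd45b, Mdm2, Ccnd2, Gadd45a, Ccnd1 and Trp53 followed, each with bounds that overlapped those of its neighbour. In Rbfox2 OE the order was Ccng1, Cdkn1a, Gadd45g, Ccnd3, Gadd45a, Mdm2, Ccnd1, Gadd45b, Ccnd2 and Trp53, and the bounds of all neighbours overlapped. The highest level was 50.9 times the lowest in MHC cells and 12.04 times in OE cells. By level in both groups, the protein-coding genes nearest to Cdkn1a were Srgn, Retsat and Cd74, at distances of 0.09 to 0.19 on the log2 scale, and those nearest to Ccng1 were Ndufs1, Adck3 and Pfkm, at 0.12 to 0.23. This likeness rests on 2 values per gene.

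**Figure D4:**
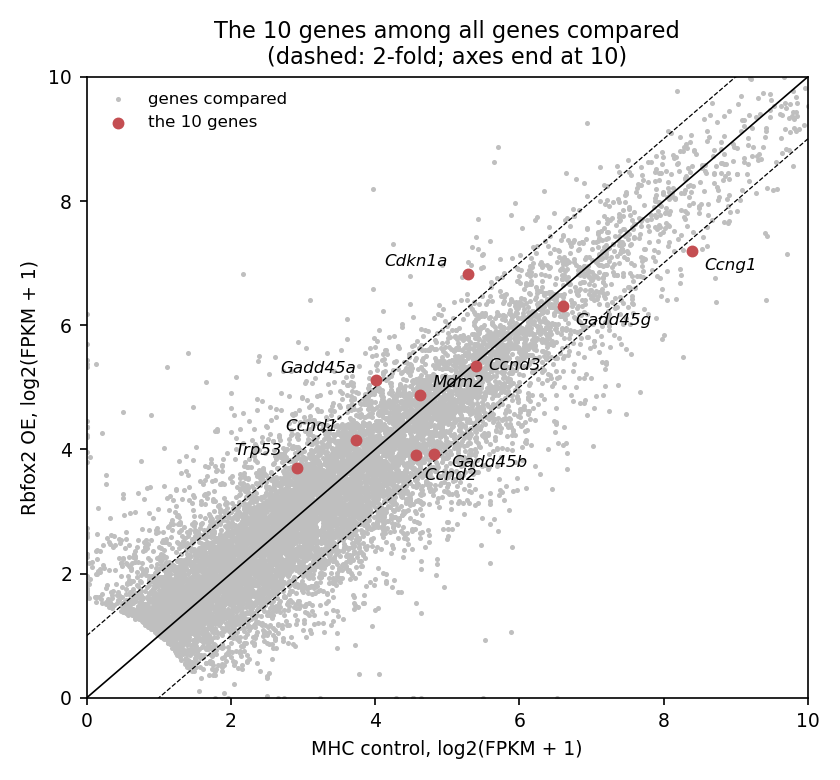
Log2(FPKM + 1) in OE cells against MHC control for the genes compared (grey) and the 10 genes (red), with the diagonal and 2-fold lines dashed and the axes ending at 10, which leaves out the most abundant genes. Cdkn1a and Gadd45a lie above the upper dashed line, Ccng1 lies below the lower one and the other 7 lie between.

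The wider p53 programme was followed in a list of 36 target genes, 4 of them already described. Of the 34 that passed the filter, 6 were at least 2-fold higher and 2 at least 2-fold lower, and by separate bounds 7 were higher and 3 lower, beside 6.95%, 10.02%, 6.66% and 9.33% of all genes compared. The count of 6 depended on the pseudocount, with 9 at 0.1 FPKM and 1 at 5 FPKM. The median log2 ratio was 0.11, against -0.06 for all genes compared. Without the 4 genes above, 4 of 30 were 2-fold higher (0 with 5 FPKM added), 1 was lower, and the median was 0.10.

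Phlda3, which restrains the survival kinase Akt, was 2.65 FPKM in MHC cells and 9.93 FPKM in OE cells, a log2 ratio of 1.58 with separate bounds. Fas, a death receptor, was 9.12 and 21.5 FPKM, a log2 ratio of 1.15 with separate bounds. Tigar, which slows glycolysis, was the lowest by ratio, at 25.04 FPKM in MHC cells and 9.93 FPKM in OE cells, a log2 ratio of -1.25 with separate bounds. Among targets picked after their values were seen, Sesn1, a stress-induced brake on mTORC1, was also lower with separate bounds, at 71.7 and 37.7 FPKM, and the growth inhibitor Btg2 was 80.2 and 68.3 FPKM with overlapping bounds. The death genes Bbc3, at 2.21 and 3.60 FPKM, and Bax, at 15.6 and 16.9 FPKM, had overlapping bounds, those of Bax reaching 0 in both groups. Plk3, Trp53inp1 and Dram1, also picked after their values were seen, were higher with separate bounds, at log2 ratios of 1.02, 0.89 and 0.93. The targets thus lay on both sides, as the 4 described above did, but not evenly. By separate bounds 7 of 34 were higher and 3 lower. Without the 4 described above, 5 of 30 were higher and 2 lower. Among all genes compared, 6.66% were higher and 9.33% lower by separate bounds.

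Regulators of p53 were followed next. Of 22 compared from a list of 28, 0 were 2-fold higher and 1 was 2-fold lower, beside 6.95% and 10.02% of all genes compared. The median log2 ratio was 0.02. With a pseudocount of 0.1 FPKM, 4 regulators were 2-fold lower, as were 1554 of all genes compared. With 1 FPKM added, the 2-fold lower gene was the acetyltransferase Kat2b, with overlapping bounds. The kinase gene Hipk2 was the 1 regulator with separate bounds, at 36.9 FPKM in MHC cells and 18.02 FPKM in OE cells. Rpl11, a ribosomal protein that binds Mdm2 and the most abundant gene of the list, stood at 299 and 446 FPKM with overlapping bounds. Mdm4, the close relative of Mdm2, stood at 5.26 and 6.34 FPKM, also overlapping.

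**Figure D5:**
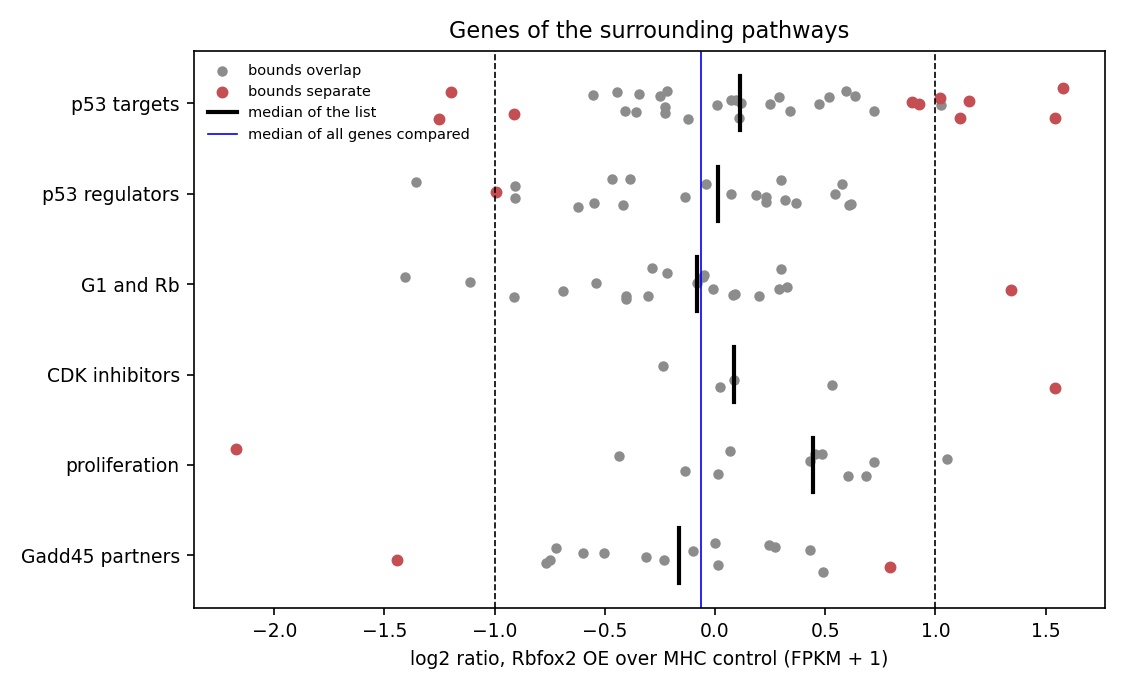
Log2 of the Rbfox2 OE level divided by the MHC level (1 FPKM added to each value) for the genes of 6 lists that passed the filter, where each point is a gene, red points have separate bounds, black bars are list medians, the blue line is the median of all genes compared and dashed lines mark 2-fold. The p53 targets hold red points on both sides, the regulators 1 just short of 2-fold lower.

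Cdkn1a was alone among the inhibitors of cyclin-dependent kinases in differing 2-fold. Of 7 inhibitor genes 5 passed the filter, and the other 4 had overlapping bounds. Among all genes compared, 6.95% were at least 2-fold higher and 10.02% at least 2-fold lower. Cdkn1b (p27) stood at 13.6 FPKM in MHC cells and 20.2 FPKM in OE cells, Cdkn1c (p57) at 17.6 and 17.9, Cdkn2c at 5.15 and 5.53, and Cdkn2d at 10.2 and 8.51. Cdkn2a and Cdkn2b were under 1 FPKM in both groups. The summed level of the 7 genes was 85.1 FPKM in MHC cells, of which Cdkn1a made up 38.0, and 165 FPKM in OE cells, of which it made up 112.

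Genes of a G1 and Rb list, not all of them downstream of the D-type cyclins, mostly had overlapping bounds, as did most genes compared. Of 21 compared from 26, 1 was 2-fold higher and 2 were 2-fold lower, beside 6.95% and 10.02% of all genes compared. Myc was the 1 gene with separate bounds. Myc, a growth-promoting transcription factor, stood at 3.60 FPKM in MHC cells and 10.7 FPKM in OE cells. Cdk4, the most abundant gene of the list and the main partner of D-type cyclins, stood at 53.7 and 61.7 FPKM, and Cdk6 at 1.69 and 1.18 FPKM, both with overlapping bounds. The 2 lower genes, Ccnh and Fbxo31, had overlapping bounds.

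Genes of DNA replication and mitosis were low in both groups. Of 27 listed, 12 reached a mean of 1 FPKM. Of these, 9 had the higher value in OE cells and 3 the lower one. The median log2 ratio of the 12 was 0.44, with 0.64 at a pseudocount of 0.1 FPKM and 0.58 with equal totals. It was -0.06 among those with a mean of at least 5 FPKM, and 0.16 with 5 FPKM added in place of 1. Most listed genes below the filter also had the higher value in OE cells. Of the 12, 1 was 2-fold higher (Tyms, with overlapping bounds) and 1 was 2-fold lower, beside 6.95% and 10.02% of all genes compared. The lower one was Cenpf, a kinetochore protein gene, at 4.65 FPKM in MHC cells and 0.251 FPKM in OE cells with separate bounds. Mki67, which marks cycling cells, stood at 0.435 and 0.835 FPKM. Pcna, the DNA clamp that both p21 and Gadd45 proteins bind and the most abundant gene here, stood at 20.4 and 20.6 FPKM.

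Most genes of a list of Gadd45 partners, which also holds kinases of the p38 and JNK pathways, had overlapping bounds, as did most genes compared. Of 16 compared from 18, 0 were 2-fold higher and 1 was 2-fold lower, beside 6.95% and 10.02% of all genes compared. By separate bounds 1 was higher and 1 lower, beside 6.66% and 9.33%. The median log2 ratio was -0.16. That median was 0.02 with equal totals and -0.41 among the listed genes whose mean reached 5 FPKM. Map2k6, which activates p38 kinases, stood at 4.01 FPKM in MHC cells and 0.845 FPKM in OE cells with separate bounds. Mapk11, a p38 kinase, was the 1 listed gene that was higher with separate bounds, at 0.783 and 2.09 FPKM. Map3k4, the kinase that Gadd45 proteins open, stood at 12.3 and 7.08 FPKM, and Mapk14, the main p38 kinase of the heart, at 23.8 and 15.4 FPKM, both with overlapping bounds. Map2k7, the most abundant of the list, stood at 35.6 and 33.2 FPKM.

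Because Rbfox2 binds RNA at UGCAUG, written TGCATG in DNA letters, the 3′ untranslated regions of the 10 genes were searched on the sense strand for those 6 letters, in 1 coding transcript per gene from GENCODE. They were found in 4 of the 10 genes, against 31.5% of 11069 genes compared. The regions of Ccng1 and Ccnd2 held 2 copies each, and those of Ccnd1 and Ccnd3 held 1 each. The 6 sites are shown in windows of 30 bases with the motif in capitals, since they hold the letters that the overexpressed protein recognises. On GRCm38 they lie at chr11:40750278-40750307 and chr11:40750168-40750197 (Ccng1, minus strand), chr7:144930396-144930425 (Ccnd1, minus strand), chr6:127127944-127127973 and chr6:127126586-127126615 (Ccnd2, minus strand) and chr17:47598934-47598963 (Ccnd3, plus strand).
Ccng1, first site: aaagtaattataTGCATGaaaatataaaat
Ccng1, next site: ttttttccttaaTGCATGgcagcacatgcc
Ccnd1: agcggcctgttgTGCATGccaccatgctgc
Ccnd2, first site: gtcagcctgattTGCATGcgtgcaccaggg
Ccnd2, next site: ctagctttaaggTGCATGcctactgacacg
Ccnd3: gcactaaggggtTGCATGgtcatgaggggc

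Longer regions hold such short motifs more often. The Ccng1 region has 2316 bases, and of genes with a region within 20% of that length 53.3% held the motif. The share was 57.0% at the length of Ccnd1, 81.1% at that of Ccnd2 and 26.1% at that of Ccnd3. The 3 Gadd45 genes and Trp53, with regions of 441 to 563 bases, held none, and at those lengths 14.3% to 14.5% of genes did. Cdkn1a and Mdm2, with 1334 and 1335 bases, held none either, against 35.6% and 35.7%. Genes compared with the motif had a median log2 ratio of -0.09 and those without it -0.06. A match is a description of the sequence, and Rbfox2 binding at these sites was not tested. Introns, coding sequence, 5′ untranslated regions and other transcripts of these genes were not searched.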

How the data were processed

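Polyadenylated RNA from cardiomyocytes was sequenced in 4 libraries, grouped by their titles into MHC control (2) and Rbfox2 OE (2). The values are FPKM made by the authors in a Cuffdiff gene table, per the file headers, with bounds in FPKM and a status. Per the submitters' processing notes, the tools include STAR 2.4.2a and Cuffdiff 2.2.1 and the build is GRCm38. The annotation, normalization mode and strand setting are not given in the sources used here. The table has 1 value per group, so the limma fit planned for values per library was replaced by a comparison without a test.

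Rows sharing a name were summed, genes with the status HIDATA were left out of ratios, and log2((Rbfox2 OE + 1)/(MHC control + 1)) was computed for the 11695 genes whose mean over both groups reached 1 FPKM. The pseudocount understates differences of low genes. A gene was counted at 2-fold and, separately, where bounds did not overlap. Depth is unknown, so no counting intervals were given. Every one of the 10 genes is named. From each pathway list up to 4 genes higher and 4 lower past 2-fold with separate bounds are named (and the most abundant gene where fewer than 2 passed). The 3 protein-coding genes nearest in level are named for the highest and lowest ratio. Others were chosen after values were seen. The 10 genes and all lists were chosen with earlier results of these data known. GENCODE M21 matched 99.2% of identifiers. Calculations used Python 3.11.15 and pandas 2.3.3 and were tested on simulated data.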

Additional observations from a re-analysis of the deposited data

How the results depend on the processing

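No paired analysis was possible because the values used here are 1 pooled level per group, and leaving out each library was not run for the same reason, so the spread between libraries limits every result. Of the alternatives, only the 3 rescalings could turn the sign of a gene, and they turned that of Ccnd3 (0.14 with equal totals). A pseudocount of 5 FPKM gave 0.95 for Gadd45a, leaving 1 gene past 2-fold higher, since it shrinks ratios of low genes. With a 1.5-fold threshold Trp53 (0.79), Ccnd2 (-0.65) and Gadd45b (-0.90) also passed, making 3 lower. With a 4-fold threshold Cdkn1a (1.54), Gadd45a (1.11) and Ccng1 (-1.20) no longer passed, leaving 0 higher and 0 lower. Each of the 3 rescalings left 1 gene lower with separate bounds, Ccng1, because they raise Rbfox2 OE. Equal totals, and equal totals without mitochondrial and the 10 most abundant genes, moved the median of the 10 genes to 0.29 and 0.25.

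Over all genes, a pseudocount of 5 FPKM gave 303 higher and 559 lower, a 1.5-fold threshold 1936 and 2582, and a 4-fold threshold 135 and 154. Of 84 list medians recomputed, 24 moved by at least 0.1 and 6 changed sign. With a minimum mean of 5 FPKM the proliferation list turned to -0.06 and the p53 targets without the 10 genes, a choice made after seeing the data, to -0.08. With equal totals the G1 and Rb list turned to 0.04 and the Gadd45 partner list to 0.02. Without mitochondrial and top genes the G1 and Rb list turned to 0.01. The mean of the p53 regulators was -0.12. The causes were not tested where none is given.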
